A study of Sus scrofa with 9 samples.

Results

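Testis tissue of fertile control boars was profiled on 3 of the 9 arrays of the series. The 3 samples were taken by their labels alone, which give control semen parameters and a normal chromosome complement (2n=38,XY), and no measured value entered the choice. The study's methods name 3 fertile boars with normal semen as the controls, the results text speaks of a pool of control boars and the labels of testicular biopsies, but none of them says which boar each array holds or whether boars were mixed. The 3 arrays lay on 3 different slides, so that boar, biopsy and slide cannot be told apart, and every SD below covers all of them (n = 3 arrays throughout). Age and breed of these boars were not given in the sources used here. The other 6 arrays were of an oligospermic group with a normal complement and of an oligo-astheno-teratospermic boar carrying a reciprocal translocation. They were used only to set the spread between arrays and the patterns over slides side by side. Expression levels were not compared between groups.

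The testis makes sperm in the seminiferous tubules, where spermatogonia divide, spermatocytes go through meiosis and haploid spermatids are reshaped into sperm. In spermatids the histones are exchanged first for transition proteins and then for protamines, which pack the DNA of the sperm head, while the acrosome and the flagellum are built. Sertoli cells nurse the germ cells inside the tubule, peritubular myoid cells surround it, and Leydig cells between the tubules make androgens and the hormone INSL3. A biopsy mixes all of these cells, so that in such bulk RNA fewer cells of a type and less RNA per cell cannot be told apart.

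RNA labelled with the dye Cy3 was hybridised to a custom porcine array of 60889 probes, each 60 bases long. The values used here are the deposited log2 intensities, quantile normalised over all 9 arrays, where a difference of 1 is a factor of 2. The deposited table holds 38759 of the probes, and the brightest probe of each gene name was kept, which left 31227 features with a median of 7.74. Of these, 6214 were genes with a symbol in the RefSeq table of the pig, called named genes here, and their median was 9.12. The scanner software marked 37425 to 40632 probes per array as well above background, as against 6 to 10 of the 308 negative control spots. Of the 7191 named genes on the array, 5972 (83.0%) had a probe well above background on all 3 arrays and 744 (10.3%) had none on any of them.

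A log2 value is the signal of a probe and not an amount of transcript, since probes bind with different strength. In 3835 named genes with at least 2 probes well above background on all 3 arrays, the brightest and the dimmest probe of the same gene lay a median of 2.15 apart, and in 52.8% of them they lay at least 2 apart. For ODF2, a protein of the outer dense fibres of the sperm tail, the 7 probes in the table ranged from 3.24, not well above background on any array, to 16.18. Any order of genes below is thus an order of probe signals.

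The probes of the genes on which the results turn are given here, 5′ to 3′ as listed in the array files, so that each signal can be traced to the stretch of transcript it reads. They comprise the spermatid and Leydig cell genes of highest signal (TNP1, TNP2, PRM1, PRM2, GPX4, INSL3). Also given is a Sertoli cell gene with a varying and a saturated probe (CLU). PTGDS, AKR1C1, FOS and NQO1 are among the genes that varied most between the control arrays. Capitals mark AATAAA, the usual polyadenylation signal, which lies shortly before the end of a transcript.
TNP1: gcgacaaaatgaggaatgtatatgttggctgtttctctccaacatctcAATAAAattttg
TNP2: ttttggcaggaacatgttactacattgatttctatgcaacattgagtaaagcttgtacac
PRM1: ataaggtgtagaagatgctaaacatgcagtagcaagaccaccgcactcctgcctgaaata
PRM2: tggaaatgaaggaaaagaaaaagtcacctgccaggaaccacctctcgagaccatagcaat
GPX4: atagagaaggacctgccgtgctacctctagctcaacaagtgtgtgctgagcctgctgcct
INSL3: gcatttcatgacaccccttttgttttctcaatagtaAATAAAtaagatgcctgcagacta
CLU: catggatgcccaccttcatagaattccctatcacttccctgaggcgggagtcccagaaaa
PTGDS: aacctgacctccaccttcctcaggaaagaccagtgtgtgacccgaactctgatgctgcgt
AKR1C1: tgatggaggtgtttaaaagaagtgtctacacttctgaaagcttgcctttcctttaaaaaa
FOS: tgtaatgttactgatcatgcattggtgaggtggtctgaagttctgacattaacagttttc
NQO1: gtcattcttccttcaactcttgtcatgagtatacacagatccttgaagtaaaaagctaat

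The letters AATAAA stood in 16.5% of the chosen probes of named genes and in 11.4% of all probes, and their reverse complement TTTATT in 4.89% and 4.35%. Among the brightest 10% of named genes 146 of 622 probes (23.5%) held AATAAA, and among the dimmest 10% 51 of 622 (8.20%). Median GC content was 41.7% in the brightest 10% and 45% in the dimmest.

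The brightest signals came from genes of late spermatids and from genes of general cell functions. The 20 named genes of highest mean ran from 15.95 to 16.22, all with an SD of at most 0.19. GPX4 was the brightest, with 16.25, 16.11 and 16.29 on control arrays 1, 2 and 3. It encodes a selenium-dependent peroxidase that also forms the capsule of sperm mitochondria. TNP2 followed with 16.19, 16.25 and 16.13, and TNP1 had 16.14, 16.10 and 16.14. These encode the transition proteins that replace histones in spermatids. PRM2, a protamine, had 15.99, 16.16 and 16.01. ODF2 had 16.29, 16.08 and 16.16. PHF7, which acts on histones before they are exchanged, stood at 15.98 ± 0.05 (SD), and ACRBP, the binding protein of proacrosin in the acrosome, at 15.96 ± 0.07. PHKG2, the catalytic subunit of phosphorylase kinase found in liver and testis, stood at 16.09 ± 0.10, although its second probe read 13.03.

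The remaining 12 of these 20 genes are not specific to the germ line. They were the ribosomal proteins RPLP0 (16.05 ± 0.17) and RPS20 (16.04 ± 0.08), the elongation factor EEF1A1 (16.05, 15.94 and 16.01), the poly(A)-binding protein PABPC1 (15.95 ± 0.03), ubiquitin UBB (16.03 ± 0.02), the mitochondrially encoded oxidase subunit COX1 (16.02 ± 0.12), peroxiredoxin PRDX5 (16.01 ± 0.05), ferritin FTH1 (between EEF1A1 and PRDX5, SD 0.0078), the chaperonin subunit TCP1 (15.99 ± 0.19), the phosphatase PGP (15.97 ± 0.04), the tetraspanin TSPAN6 (15.96 ± 0.14) and cyclophilin PPIA (15.95 ± 0.09). PGP and TSPAN6 each rest on 1 bright probe: the other PGP probe read 13.14, and the other TSPAN6 probe is not in the table. Neighbours in this order did not differ beyond their spread, since TCP1 alone differed by 0.37 between arrays, which is more than the distance from the first to the last of the 20 means. The probe was named through an accession it shares with another probe for 6 of the 20.

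The top of the scale was also the limit of the scanner. Of these 20 genes, 16 had a saturated probe on at least 1 array, and GPX4, ODF2, TNP1 and PRM2 on all 3, so that their values are lower bounds. On all control arrays together, 52 probes were saturated on all 3, and 39 of these are not in the deposited table. Protamine 1 (PRM1) is among them: all 3 of its probes were saturated on all 3 arrays, the brightest with processed intensities of 77005, 72071 and 74680. The ribosomal protein RPLP2 was read by a single probe, also saturated throughout, with 62903, 66076 and 62147. Both genes, singled out after their values were seen, thus lack a log2 value while belonging to the brightest of the tissue. ROPN1, a protein of the fibrous sheath of the sperm tail, lacks one as well at 78670, 46900 and 63316, although its probe was not saturated.

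Spermatid genes as a group lay far above the median of named genes. Of 75 listed genes of spermatids and sperm, 40 are on the array, all 40 had a probe well above background on every array, and 38 have a log2 value. Their median was 14.75, as against 9.12 for all named genes, and 29 of the 38 (76.3%) fell in the brightest 10% of named genes, which starts at 13.07. After TNP2, ODF2, TNP1 and PRM2 came PHF7 and acrosin (ACR), the main protease of the acrosome, with 15.79, 15.73 and 15.76. SMCP of the mitochondrial capsule stood at 15.73 ± 0.14, the germ cell antizyme OAZ3 at 15.71 ± 0.14, and AKAP4, the main protein of the fibrous sheath, at 15.45 ± 0.21. The dimmest were AKAP3 (9.86 ± 0.15), another anchoring protein of the sheath, and CATSPER4 (10.52 ± 0.26), a subunit of the sperm calcium channel. CATSPER1 and CATSPER3 were close to it at 11.09 and 10.56, with CATSPER2 at 12.53. No spermatid gene differed by 1 or more between arrays, and the median SD was 0.15. In the brightest 10% of all named genes these were 1.77% of genes and 0.14, so that this evenness is shared by other bright genes. Saturated probes could not show a difference.

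**Figure D1:**
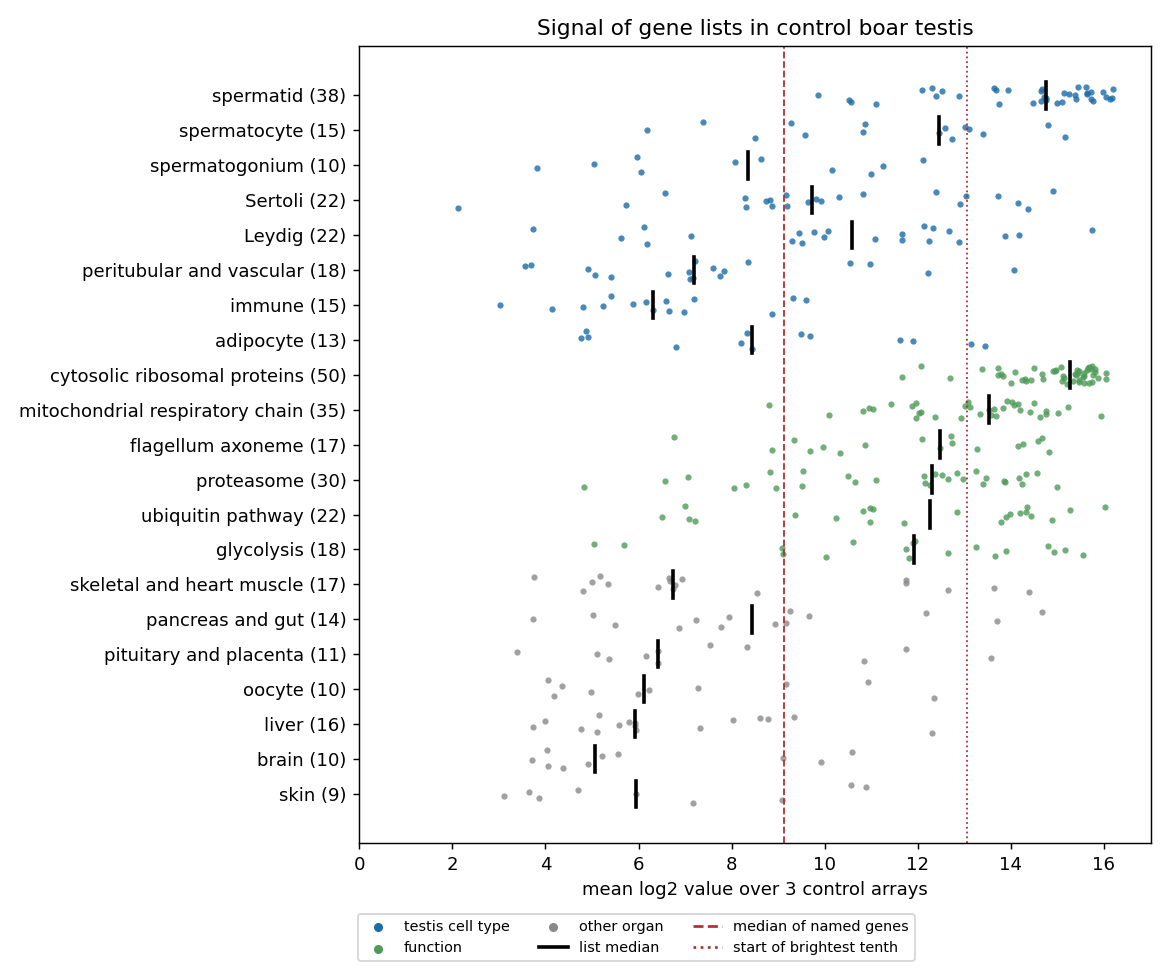
Each point is the mean log2 value (horizontal axis) of 1 gene over the 3 control arrays, grouped by gene list, with the number of genes in brackets and the list median as a bar. Spermatid genes (median 14.75) and ribosomal proteins (15.27) lie right of the dotted line at 13.07 where the brightest 10% of named genes starts, while the lists of other organs mostly lie left of the dashed median of named genes (9.12).

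Genes of meiosis and of the sperm flagellum lay between the spermatid genes and the median of named genes. The 15 spermatocyte genes, all well above background on all 3 arrays, had a median of 12.46, and 4 (26.7%) lay in the brightest 10%. These were the glycolytic enzymes of germ cells PGK2 (15.17 ± 0.26) and LDHC (14.80 ± 0.04), the meiotic cyclin CCNA1 (13.39 ± 0.08) and SPATA22 (13.09 ± 0.02), which works in meiotic recombination. SPO11, which makes the breaks that start recombination, had 11.11, 10.40 and 11.07. At the lower end stood TEX11 (6.19 ± 0.25), an X-linked gene of meiosis, and PIWIL2 (7.38 ± 0.17), of the small RNA pathway that silences transposons. The 17 axoneme genes with a value had a median of 12.48, and 6 (35.3%) were in the brightest 10%, led by SPAG6 of the central pair (14.83 ± 0.10), the tektin TEKT2 (14.67 ± 0.02) and MEIG1 (14.58 ± 0.11), with DNAL4 the dimmest at 6.77. CFAP47 had no probe above background.

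Spermatogonial genes were much dimmer than those of later germ cells. Their 10 genes with a value had a median of 8.36, below the median of named genes, and none lay in the brightest 10%. DMRT1, a transcription factor of germ and Sertoli cells, was brightest with 12.23, 11.87 and 12.23, before UCHL1 (11.25 ± 0.28) and the RNA helicase DDX4 (10.99 ± 0.15), which later germ cells express too, and the receptor KIT (10.16 ± 0.34). GFRA1, the GDNF co-receptor of the stem cells, had 4.06, 3.38 and 4.01 and was well above background on 1 array only, and LIN28A stood at 5.05 ± 0.39. GFRA1 and LIN28A thus lay at the low end of the measured range, while 4 of the 10 genes exceeded the median of named genes.

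Among the somatic cells, Leydig and Sertoli cell genes were above the median of named genes. The 22 Leydig cell genes had a median of 10.58, and 17 exceeded 9.12. INSL3 was the brightest, with 15.76, 15.76 and 15.72, followed by cytochrome b5 CYB5A (14.18 ± 0.34) and ferredoxin FDX1 (13.88 ± 0.19), which feed electrons to the steroid enzymes, and the lipoprotein receptor SCARB1 (12.88 ± 0.15). Of the steroid enzymes, CYP17A1 stood at 12.24 ± 0.29 and CYP11A1 at 11.67 ± 0.11. The cholesterol carrier STAR had 10.92, 11.64 and 10.70, and aromatase CYP19A1 9.64, 9.78 and 9.88. The luteinising hormone receptor LHCGR was at 9.52 ± 0.11. HSD3B1, listed as the enzyme that makes progesterone, read only 6.19 ± 0.07, the relaxin gene RLN2 5.61 ± 0.68 and the sulfotransferase SULT1E1 3.73 ± 0.63, and DLK1 had no probe above background.

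The 22 Sertoli cell genes had a median of 9.73, and 4 (18.2%) were in the brightest 10%. They were clusterin CLU, with 15.48, 14.06 and 15.20, FATE1 (14.37 ± 0.16), the protease inhibitor SERPINA5 (14.16 ± 0.49) and CLDN11 of the blood-testis barrier (13.73 ± 0.56). The lower CLU value of array 2 comes from the single CLU probe in the table. Its other 2 probes, outside the table and saturated on at least 2 arrays, read 59274, 60766 and 60681 in one case and 72842, 66391 and 76590 in the other. Being saturated and not normalised, they can show neither the dip nor its absence. The defining factors of the cell type were less bright: WT1 at 10.30 ± 0.19, SOX9 at 9.64 ± 0.14, AMH at 8.86 ± 0.40 and the FSH receptor FSHR at 8.83 ± 0.38. INHBB was at 5.72 ± 0.23 and the keratin KRT18 at 2.12 ± 0.50, not well above background on any array, and KITLG had no probe above background.

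Peritubular and vascular genes had a median of 7.19 over 18 genes, with smooth muscle actin ACTA2 (13.52, 14.27 and 14.40) alone in the brightest 10%. DCN, DES and VWF followed at 12.22, 10.98 and 10.55, and MCAM and TEK were the dimmest at 3.69 and 3.57, each with a chosen probe well above background on 1 array. The chosen probes of the endothelial genes PECAM1 and CDH5 read 7.60 ± 0.41 and 6.63 ± 0.63. No probe of COL1A1 was above background.

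Immune and blood genes were dim or below detection. Of 22 immune genes on the array, 6 (27.3%) had no probe above background on any array, as against 10.3% of all named genes. These 6 were CD2, CD3D, CD3G, CD4, CD79A and CD8A, all of T or B lymphocytes. The 15 genes with a value had a median of 6.31, and the macrophage genes MRC1 (9.60 ± 0.24) and C1QC (9.31 ± 0.65), the T and B cell antigen CD5 (8.87 ± 0.64) and lysozyme LYZ (7.19 ± 0.11) led them, with NKG7 (4.13) and MS4A1 (3.02) last. Of the genes of red blood cells, platelets and neutrophils, S100A8, S100A12, S100A9, PPBP and SLC4A1 had no probe above background. Adult beta globin HBB was above background on 2 arrays and the embryonic zeta globin HBZ read 5.66, 6.68 and 6.76. For these lists the number of red and white blood cells carried in the biopsies was not measured.

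Lists of basic cell functions had medians above that of all named genes. Cytosolic ribosomal proteins had a median of 15.27, and 47 of 50 (94%) lay in the brightest 10%, with RPL3 (12.07 ± 0.11) and RPL13A (11.66 ± 0.37) the dimmest and RPS19 without a probe above background. RPL10L, the copy of RPL10 used in male meiosis, had 14.23, 14.38 and 14.36, and RPL10 itself, on the X chromosome, 13.84, 13.47 and 13.89. Ribosomal protein genes have many processed copies, so that probes may share signal among near-identical sequences. Of 35 genes of the respiratory chain 21 (60%) were in the brightest 10%, led by COX7A2 (15.93 ± 0.21) and COX6A1 (15.22 ± 0.10), and NDUFA4L2 (8.79 ± 0.28) was the dimmest.

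The ubiquitin and proteasome genes, which clear proteins during the reshaping of spermatids, had medians of 12.27 (10 of 22 in the brightest 10%, 45.5%) and 12.31 (10 of 30, 33.3%). After UBB came the conjugating enzymes UBE2D3 (15.27 ± 0.06) and UBE2J1 (14.88 ± 0.09), and the proteasome was led by PSMA6 (15.34, 14.65 and 14.96). The subunit of the immune form of the proteasome PSMB8 was the dimmest proteasome gene, with 3.91, 4.37 and 6.22. Of 41 heat shock and chaperonin genes 14 (34.1%) were in the brightest 10%, among them TCP1, HSP90AA1 (15.70 ± 0.11), DNAJB1 (15.66 ± 0.15) and CCT3 (15.39 ± 0.08). The germ cell heat shock protein HSPA1L stood at 15.26 ± 0.12, and the stress-induced HSPA6 at 5.30 ± 0.36.

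Of the glycolytic genes 7 of 18 (38.9%) were in the brightest 10%, among them the germ cell forms PGK2 and LDHC, while the sperm enolase ENO4 read 8.67, 10.79 and 10.60. HK1 had 15.52, 15.66 and 15.46 and HK2 6.03, 5.47 and 5.53. PGK2 read 15.17 beside 11.90 for PGK1, the form of other cells, and LDHC 14.80 beside 13.66 for LDHA and 12.65 for LDHB. These pairs are read by different probes and give no ratio of transcripts. Of tubulins and actins, ACTL7B (15.64 ± 0.06), TUBB2B (15.34 ± 0.03), ACTL7A (14.75 ± 0.04) and ACTL9 (14.47 ± 0.15) led, 3 of these 4 being actin-like proteins of spermatids.

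Genes of other organs were mostly dim, with a few bright exceptions in each list. Liver genes had a median of 5.92 and brain genes of 5.06, and albumin ALB stood at 5.12 ± 0.47. Of 22 genes of pancreas and gut, 8 (36.4%) had no probe above background, namely FABP2, GCG, GIP, INS, MUC2, TFF1, TFF2 and VIL1. Of 27 muscle genes this held for 9 (33.3%), among them the fast myosins MYH1, MYH2 and MYH4 and the natriuretic peptides NPPA and NPPB. It held for 4 of 16 pituitary and placenta genes (25%), AVP, FSHB, GH1 and GNRH1, for 4 of 14 oocyte genes (28.6%), H1FOO, NLRP5, ZP3 and ZP4, and for 5 of 18 brain genes (27.8%), GFAP, GRIN1, MOG, SLC6A3 and TPH2. It held for 3 of 12 skin genes (25%), IVL, KRT5 and TP63, for 2 of 12 epididymis genes (16.7%) and for 2 of 22 liver genes (9.09%), ARG1 and G6PC. The share over all named genes was 10.3%, so that 7 of these 8 lists lay above it and the liver list below. Among the exceptions were chromogranin CHGA (14.52, 14.53 and 14.98), the elastase CELA2A (13.71 ± 0.13), cholecystokinin CCK (12.18 ± 0.26), the muscle protein MYOZ1 (14.38 ± 0.14), heart troponin TNNI3 (13.63 ± 0.33), pro-opiomelanocortin POMC (13.58 ± 0.26), apolipoprotein APOA1 (12.32 ± 0.38), the oocyte gene ZAR1 (12.35 ± 0.06) and tyrosinase TYR (10.89 ± 0.18).

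The epididymis, which lies on the testis, was listed to see whether its tissue entered the biopsies. Its 9 genes with a value had a median of 10.16, above the 9.12 of all named genes, and 3 (33.3%) lay in the brightest 10%. GPX5, the peroxidase of its epithelium, and DEFB125 had no probe above background, and CRISP1 (4.67 ± 0.10) and RNASE10 (5.12 ± 0.28) were among the dimmest of its genes, although well above background on all 3 arrays. SPINK2 (15.81 ± 0.10), PEBP4 (14.06 ± 0.14) and TMPRSS2 (13.96 ± 0.27) were the 3 bright ones, and SPINK2 is an acrosomal inhibitor of spermatids as well. SPAG11B (10.89 ± 0.20) and NPC2 (10.16 ± 0.19) came next, also above the median of named genes. LCN5 had 7.56, 3.96 and 5.94, with its probe well above background on 2 arrays. The 13 adipocyte genes with a value had a median of 8.45, and 6 of them exceeded the median of named genes. ADIPOR2 (13.45 ± 0.30) and the lipase LIPE (13.14 ± 0.54), which has a testis form, led. SCD (11.89 ± 0.40), GPD1 (11.61 ± 0.32), CIDEA (9.69 ± 0.56) and leptin LEP (9.49 ± 0.29) followed. Adiponectin ADIPOQ (4.76 ± 0.22) and FABP4 (4.87 ± 0.57) were the dimmest, and PLIN1 had no probe above background. For comparison, the dimmest 10% of named genes ends at 5.09.

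The 10 dimmest named genes were COBLL1, the neutrophil proteins S100A12, S100A8 and PR39, ANGPTL7, the neuropeptide receptor VIPR2, KRT18, PLPPR4, BRINP1 and the vault protein MVP, with means from 1.54 to 2.21. None was well above background on any array, so that these values have no order among themselves. Only genes with a log2 value could be ranked. Of the 744 named genes with no probe above background on any array, 712 have no such value, so that genes as dim or dimmer may be left out.

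By chromosome, the X stood at the low end and the mitochondrial genome at the top. Of 272 named X-linked genes 49 (18.0%) had no probe above background, the largest share of any chromosome except Y, where it was 1 of 4 genes, as against 10.1% of autosomal genes. The share was 14.6% on chromosome 9, the highest of the autosomes, and 3.36% on chromosome 10, the lowest of them. The 206 X-linked genes with a value had a median of 8.31, as against 9.16 for 5956 autosomal genes, with 8.30, 8.26 and 8.28 on the 3 arrays, and 13 of them (6.31%) were in the brightest 10%. Chromosomes 16 and 8 came next with medians of 8.34 and 8.35, so that the X did not stand apart from them, and the highest autosomal median was 9.67 on chromosome 14. Bright X-linked genes included TSPAN6, AKAP4 and RPS4X (13.79 ± 0.07). The 13 mitochondrial genes had a median of 14.14, and 9 were in the brightest 10%. Of the Y-linked genes, EIF1AY stood at 9.01 ± 0.18, SRY was above background on 1 array and AMELY on none.

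**Figure D2:**
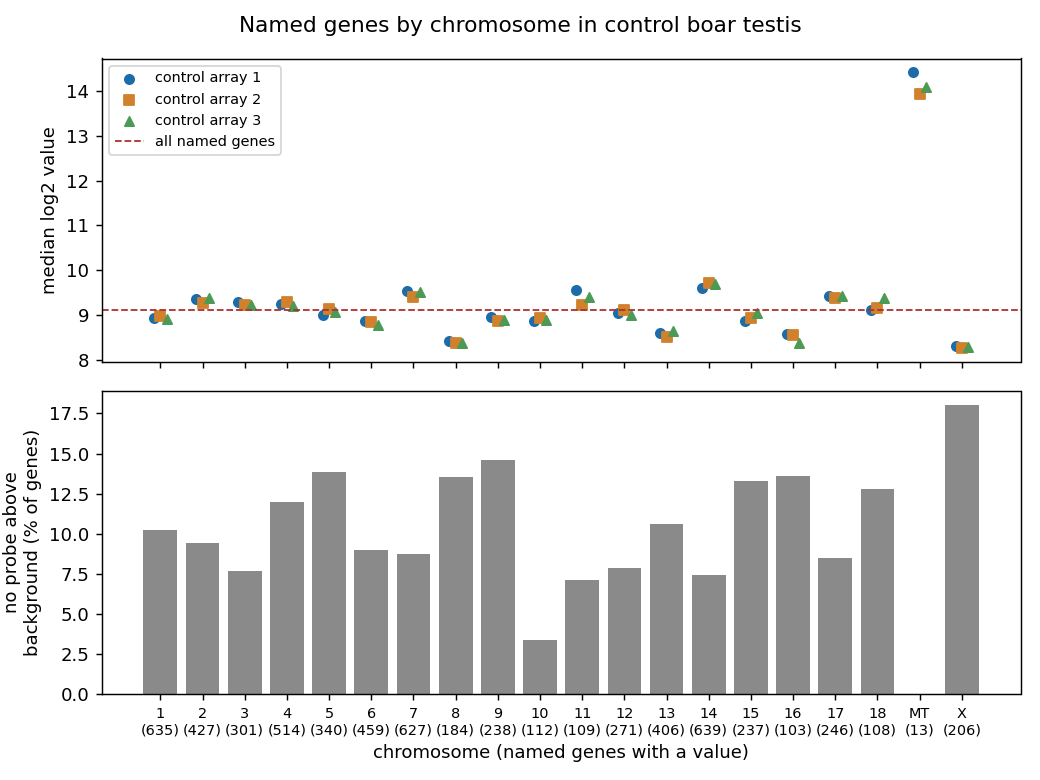
The upper panel gives the median log2 value of the named genes of each chromosome on each of the 3 control arrays, with the median of all named genes (9.12) as a dashed line, and the lower panel the share of named genes with no probe above background. The mitochondrial genome lies near 14, the X chromosome near 8.3 with 18.0% of its genes undetected, level in its median with chromosomes 8 and 16.

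The 3 arrays were close to each other for most genes. The median SD of the named genes was 0.22, with 0.13 and 0.37 as quartiles, and Pearson's r across genes was 0.980 to 0.983 for the 3 pairs of arrays, as a description in which genes are not independent. The median difference was 0.29 between arrays 1 and 2, 0.24 between 1 and 3 and 0.22 between 2 and 3. In 800 of 6214 named genes (12.9%) the highest and lowest array differed by at least 1, and in 140 by at least 2. Where they did, array 1 stood apart from the other 2 most often, in 360 genes (45%), against 230 for array 2 and 210 for array 3, and it was the low one in 255 of the 360.

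Spread depended on brightness. In the dimmest 10% of named genes the median SD was 0.42 and 37.8% had a range of at least 1, and in the brightest 10% these were 0.14 and 1.77%. Of the 5885 genes whose probe was well above background on all 3 arrays, 618 (10.5%) had a range of at least 1 and 72 of at least 2.

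**Figure D3:**
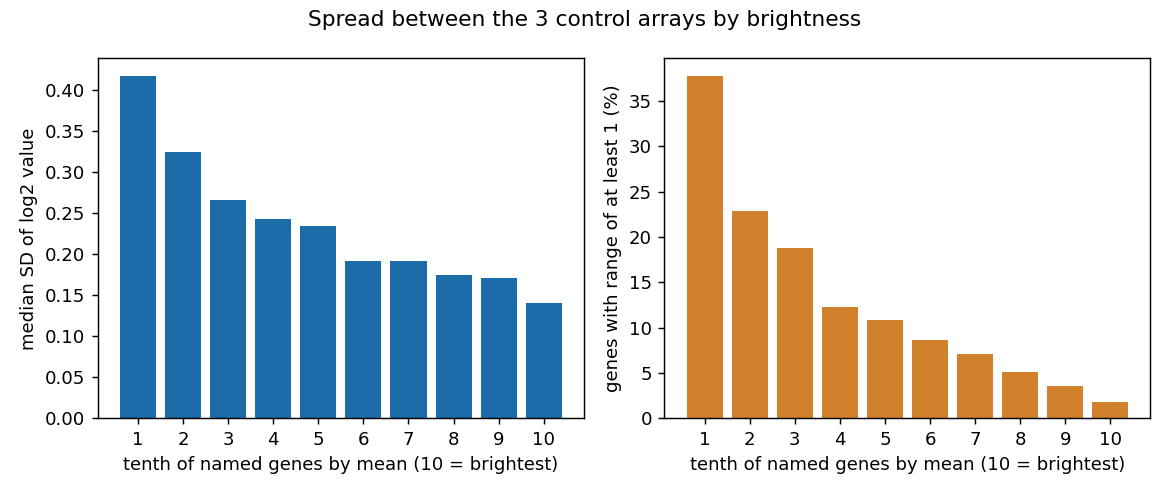
Named genes were divided into 10 groups of equal size by mean log2 value, from dimmest (1) to brightest (10). The left panel gives the median SD between the 3 control arrays in log2 units, falling from 0.42 to 0.14, and the right panel the share of genes with a range of at least 1, falling from 37.8% to 1.77%.

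The control arrays were less alike than those of either other group. On the same probes the median SD was 0.16 in the oligospermic group and 0.12 in the translocation carrier, and 286 and 215 genes had a range of at least 1, as against 800. The range was larger in the controls than in the oligospermic group for 65.0% of the named genes and larger than in the carrier for 75.7%. The methods name 3 boars as controls and 1 boar as carrier, and the part this played was not tested. Each slide held 1 array of every group. In the 800 varying genes the slide of the highest control array was also that of the highest oligospermic array in 38.6% and of the highest carrier array in 37.6%, and over all named genes in 42.8% and 39.7%.

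The named genes that varied most, all well above background on every array, are described next, beginning with 3 enzymes. AKR1C1, an aldo-keto reductase that acts on progestins, had 12.83, 8.01 and 7.08, so that array 1 lay far above the others. A second AKR1C1 probe had 12.11, 4.89 and 1.43 and was well above background on 2 arrays. The remaining one in the table had 4.28, 4.51 and 1.39, also well above background on 2 arrays. With that probe array 3 was low and array 1 did not stand above array 2. Pigs have several near-identical AKR1C genes, and which of them a probe reads is uncertain. NQO1, a quinone reductase, had 12.28, 12.86 and 9.81, with array 3 low, and its second probe had 12.24, 12.83 and 9.80. PTGDS, the prostaglandin D synthase of Sertoli and germ cells, had 12.50, 8.07 and 11.88 with array 2 low, and is read by a single probe. Its level on array 2 was more than 3 log2 units below both other arrays.

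FOS, an immediate early gene that responds within minutes to stimuli and tissue handling, had 5.74, 4.57 and 9.68, and its second probe 5.46, 4.65 and 9.61. Array 3 was thus the high one with both. Other immediate early genes were also highest there, ZFP36 with a mean of 8.04 ± 0.84 and BTG2 with 7.69, 6.78 and 7.97, and JUN, with a smaller difference, had 11.56, 11.03 and 11.71. EGR1 and EGR2 had no probe above background. The immediate early list of 16 genes also holds the heat shock genes DNAJB1, HSPA6 and HSP70.2. Over these 16 genes array 3 was the highest for 7 (43.8%), as against 26.1% of all named genes. Array 1 was the highest for 6 (37.5%), DNAJB1 and HSPA6 among them, as against 40.6%. Array 2 was the lowest for 10 (62.5%), as against 37.0%. ZFP36 and BTG2 were picked after their values were seen.

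Array 1 alone was high for DOK7, an adaptor of the neuromuscular junction (9.06, 4.91 and 4.15), and for MOB1B of the Hippo pathway (8.38, 4.75 and 4.61). Array 1 alone was low for TNFAIP8L2, an immune regulator (4.73, 8.14 and 8.21), for the neuropeptide gene ADCYAP1 (5.18, 7.96 and 8.85) and for the whey acidic protein gene WFDC2 (7.06, 9.69 and 10.17). Array 2 alone was low for the cytoskeletal adaptor PDLIM7 (10.10, 5.96 and 10.09), whose second probe had 10.12, 5.48 and 10.25, and alone high for the sodium channel subunit SCNN1A (5.10, 8.76 and 4.94) and the zinc receptor GPR39 (5.62, 8.82 and 5.48). Each of these genes split the arrays into a pair and a single one.

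Array 3 alone was high for CRTAC1, of cartilage matrix (8.37, 8.30 and 12.20), and for the centromere chaperone HJURP (7.44, 8.10 and 11.30). The other 2 HJURP probes were also highest on array 3 but differed far less between arrays, by 0.67 and 0.53. Array 3 was low for the protease inhibitor SLPI (8.13, 7.54 and 4.13), whose second probe read 7.97, 7.23 and 4.39, for CST7 (10.11, 9.81 and 6.57), for the calcium pump ATP2C2 (8.99, 10.35 and 5.79) and for C14H10orf10 (7.29, 6.76 and 4.33). POSTN, a matrix protein, had 7.31, 5.24 and 8.40.

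**Figure D4:**
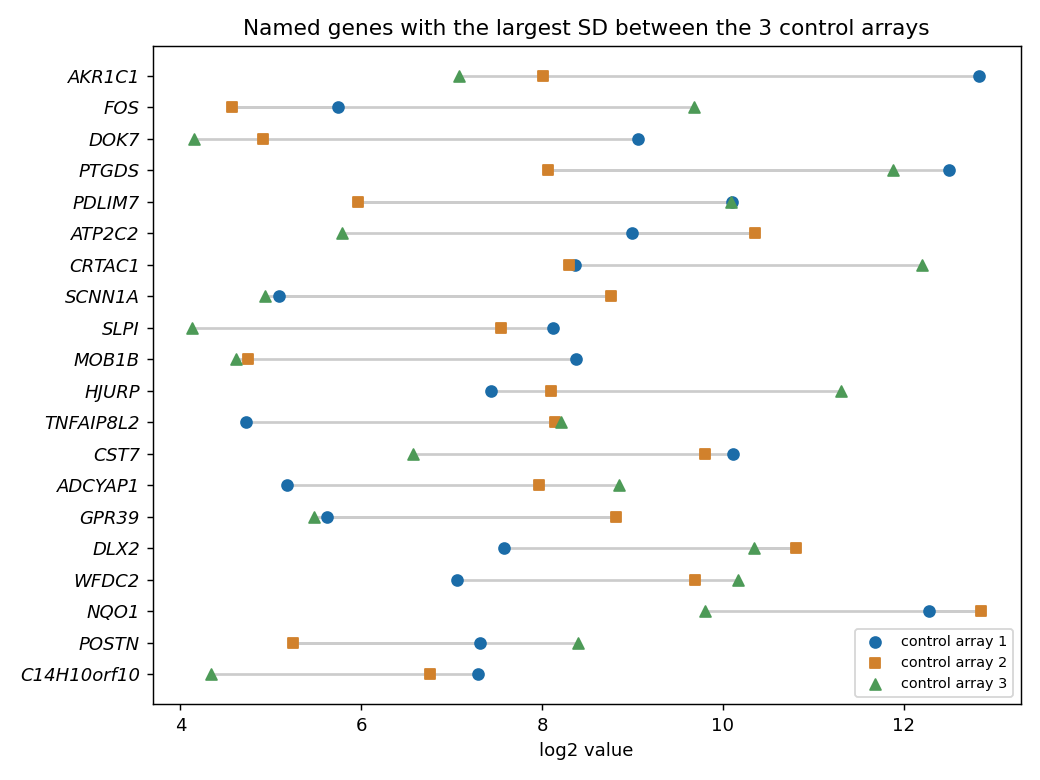
Log2 values of the 20 named genes with the largest SD on each of the 3 control arrays, among genes well above background on all 3. In most rows a single array stands apart, which is array 1 for AKR1C1 and DOK7, array 2 for PTGDS and PDLIM7 and array 3 for FOS and CRTAC1.

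The homeobox gene DLX2 had 7.58, 10.81 and 10.34 on the control arrays and, on the same 3 slides, 8.50, 10.57 and 10.69 in the oligospermic group and 5.50, 7.93 and 7.67 in the carrier. The slide of control array 1 was the lowest in all 3 groups, as it was for TNFAIP8L2. HJURP was highest on the slide of control array 3 in all 3, and PTGDS and MOB1B on that of control array 1. The part of the slide was not tested. For FOS, PTGDS and AKR1C1 the other groups' arrays differed by much less between slides than the control arrays did. In the oligospermic group and the carrier these ranges were 1.23 and 0.12 for FOS, 0.64 and 0.22 for PTGDS, and 0.18 and 0.22 for AKR1C1. They were also smaller than in the controls for TNFAIP8L2 (0.23 and 0.29) and HJURP (0.54 and 0.33). Of the 20 most variable genes only DLX2 had a range of at least 2 in another group (2.19 in the oligospermic group and 2.42 in the carrier), and the next in size was 1.51, for C14H10orf10 in the carrier.

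A second probe often showed the same pattern. Of the 318 named genes with a range of at least 1 and another probe well above background on all 3 arrays, the other probe had the same highest array in 239 (75.2%) and the same highest and lowest array in 207 (65.1%). Over all 3834 genes with such a pair these shares were 62.4% and 46.2%. The other probe itself had a range of at least 1 in 201 of the 318 (63.2%), as against 10.3% over all pairs. Probes of the same gene may overlap in sequence.

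Several lists deviated together from one array to the next. Immune genes were highest on array 3, for 10 of 15 genes (66.7%), as against 26.1% of all named genes, with a median deviation from the gene's mean of 0.37 there and of 0.03 and -0.25 on arrays 1 and 2. The complement genes C1QA and C1QB, made by macrophages, had 5.36, 4.20 and 6.15 and 6.59, 5.84 and 7.56, and the scavenger receptor CD163 6.36, 5.78 and 6.80. C1QC, the brightest of the C1Q genes, went another way, with 8.60, 9.87 and 9.46, and AIF1, CD14 and SPI1 were not highest on array 3 either. In this list 9 of 15 genes (60%) had a range of at least 1, as against 12.9% of named genes. These are also dim genes, and dim genes varied more.

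Interferon-induced genes were highest on array 3 for 16 of 23 genes (69.6%) and lowest on array 2 for 15, as against 37.0% of all named genes. MX1 had 7.95, 4.01 and 9.26 with a probe that was not well above background on every array, IFITM1 9.35, 7.73 and 10.56 and ISG15 8.40, 7.67 and 8.88. The brightest of them, OAS1, was instead low on array 1, with 11.14, 12.11 and 12.13, and OASL hardly differed between arrays (9.07, 9.07 and 9.09). The genes of antigen presentation were highest on array 3 for 11 of 15 (73.3%), with a median deviation of 0.32 there. The class I gene SLA-1 had 13.50, 13.43 and 14.68, its partner B2M 11.60, 10.80 and 12.90 and the class II gene SLA-DRA 8.91, 8.34 and 10.08. Array 3 was the highest for most genes of these lists and, as described next, of the peritubular and vascular list.

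Peritubular and vascular genes were lowest on array 1, for 14 of 18 genes (77.8%), as against 30.9% of all named genes, and highest on array 3 for 13 (72.2%), with median deviations of -0.45, 0.12 and 0.31 on arrays 1, 2 and 3. RGS5 of pericytes had 6.48, 7.35 and 7.83, the endothelial CDH5 5.95, 6.74 and 7.20, and ACTA2, as given above, was likewise lowest on array 1. Sertoli cell genes were lowest on array 2 for 12 of 22 (54.5%), as against 37.0% of all named genes, and highest on array 1 for 12, as against 40.6%. Lowest on array 2 were among others CLU, CLDN11 (14.17, 13.10 and 13.92), AMH (9.13, 8.40 and 9.06) and FSHR (9.12, 8.40 and 8.97). Ribosomal proteins were lowest on array 2 for 33 of 50 (66%), beside the same 37.0%, but by little, with a median deviation of -0.08. Spermatid genes hardly moved, with 0.01, 0.04 and -0.04, but most of them lie in the brightest 10%, where genes in general varied little.

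The same lists were also read on the other groups' arrays of each slide. On the slide of control array 3 the median deviation of the immune genes was -0.06 in the oligospermic group and -0.02 in the carrier, and that of the interferon-induced genes -0.14 and -0.03. On the slide of control array 1 the peritubular and vascular genes deviated by 0.12 and 0.07. For the control arrays boar, biopsy and slide cannot be told apart.

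**Figure D5:**
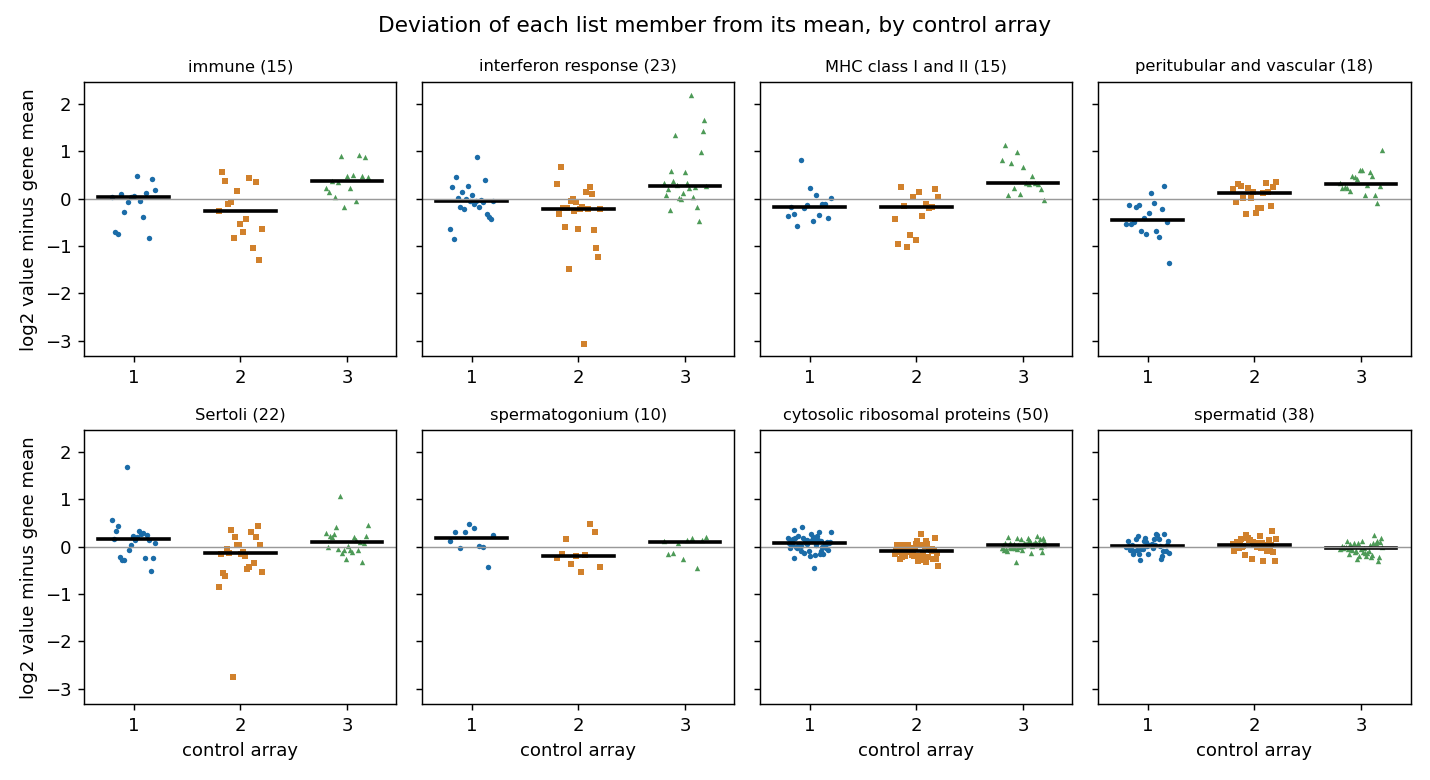
For 8 gene lists, each point is 1 gene's log2 value on a control array minus its mean over the 3 arrays, with the list median as a bar and the number of genes in brackets. Immune, interferon and antigen presentation genes lie highest on array 3 (medians 0.37, 0.27 and 0.32), peritubular and vascular genes lowest on array 1 (-0.45), and spermatid genes near 0 on every array.

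At the other end, some genes hardly differed between the arrays. The smallest SD among genes well above background on all 3 arrays was that of the membrane protein PLP2, 0.0023, at a mean of 8.31. It was followed by the ubiquitin ligase RNF114 (13.76 ± 0.0037), C1QTNF2 (6.44 ± 0.0049), the nucleotide sugar transporter SLC35A3 (8.88 ± 0.0070), annexin ANXA11 (13.99 ± 0.0075), HMGB2 (12.67 ± 0.0079), the histone methyltransferase SUV39H2 (8.79 ± 0.0087), the kinase PKN2 (8.25 ± 0.0091) and the GTP-binding protein DRG1 (14.80 ± 0.0096). FTH1 also had a small SD (0.0078), but its probe was saturated on 2 of the 3 arrays and could not show a difference, and its second probe had a range of 0.30. The second probes of the others were mostly less even: the range was 0.13 for PLP2, 0.15 for RNF114, 0.55 for SLC35A3, 0.79 for PKN2 and 0.95 for C1QTNF2. DRG1 had a range of 0.04 with its second probe.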

How the data were processed

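The study collected testis RNA on 9 single-colour Agilent arrays (Cy3), of which the 3 control arrays are described here. The authors kept spots of sufficient intensity and quality, took log2 values and quantile normalised them over all arrays, and deposited this log2 table. The deposited scanner files of the control arrays (Agilent Feature Extraction 11.5.1.1) gave the intensities and the flags for background and saturation. The number of arrays limits the precision, and intensities have no counting depth.

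Probes were grouped by the gene name of the array, 1498 probes with a truncated name each standing alone, and the probe of highest mean was kept. Symbols came from the RefSeq table through accession, gene number, symbol or synonym, or an accession shared with a matched probe (4586 probes), which named 20868 of 60889 probes (34.3%). When several features led to 1 symbol the brightest was kept. Means, SDs and ranges over 3 arrays were computed with Python 3.11.15 and pandas, and normexp with limma in R. No test was run, as expression levels were not compared between groups. The named genes were the 20 of highest and 10 of lowest mean, the 20 of largest and 10 of smallest SD among genes well above background on all 3 arrays, and of each list the 4 brightest, the 2 dimmest and those without a probe above background, while other genes in the text were picked as known members of a list. Genes and lists were chosen with earlier results of these data known. The computing steps for probe choice and ranges were checked on simulated data with known answers and equal noise at every brightness. This check does not bear on the counts in the real data. The olfactory receptor and immunoglobulin lists matched no gene, translation factors had a median of 10.81, core histones 13.68 and skin genes 5.95. Alternatives were other scalings, normexp background correction, other probe choices, detected genes only, RefSeq symbols only and leaving out each array. Symbols without shared accessions were added after seeing the data.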

Additional observations from a re-analysis of the deposited data

Results flagged for a closer look

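A signal was seen in probes that the comparisons above do not use. Of 22130 probes outside the deposited log2 table, 1062 (4.80%) were well above background on all 3 control arrays, as against 3 of 308 negative control spots. Of these probes, 466 belong to a named gene. The median processed intensity of the 1062 probes was 265, a value raised by their choice as well above background. That of the probes in the table was 244. PRM1, RPLP2 and ROPN1, described above, are among the genes read by such probes, and ATP5E, a subunit of the mitochondrial ATP synthase, is another, with 50070, 36220 and 55250 on the 3 arrays.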

How the results depend on the processing

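No paired analysis was made because expression levels were not compared between groups. List levels are given here as the list median minus the median of all features, 7.01 for spermatid, 2.84 for Leydig and -1.43 for immune genes. The spermatid level was 7.06 with 75th percentile scaling, 7.05 with quantile normalisation of the control arrays alone, 6.69 with normexp, 7.17 with the median over probes, 7.39 with the probe of lowest mean, 6.51 over genes well above background on all 3 arrays, 5.63 over named genes and 6.91 without shared accessions, a setting chosen after seeing the data. Other values that moved were the Leydig level (2.34 over detected genes and 1.46 over named genes) and the immune level (-0.91 with normexp and -2.81 over named genes). Of the features, 4969 had a range of at least 1, which became 1295 with normexp (median SD 0.150), 3180 over detected genes, 800 over named genes, 930 at a range of at least 2 and 1955 to 3187 when 1 array was left out, fewest without array 1 (1955). Features with a value numbered 6214 over named genes and 51292 over all probes. Of the 51292 features on the array, with or without a log2 value, 17369 (33.9%) had no probe above background. This count became 8661 with the weaker flag of positive and significant signal. Over named genes it was 744 of 7191 (10.3%).

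Signs turned for pancreas and gut (-0.17) and antigen presentation genes (-0.53) with the median over probes, and for spermatogonium (-0.28) and antigen presentation genes (-1.58) with the probe of lowest mean. They turned for skin genes (0.84) over detected genes, and for spermatogonium (-0.76), adipocyte (-0.68), pancreas and gut (-0.68), interferon (-0.80) and antigen presentation genes (-0.28) against the median of named genes. The immediate early list with its heat shock genes (-0.29) ranged from -0.35 to 0.032 when 1 array was left out, turning without array 2. Of 296 other list values 172 stayed within the spread between arrays. The 20 brightest genes shared 13 to 20 with each alternative and the 20 most variable 11 to 20. The cause was not tested. Dim and saturated probes limit what can be read at both ends of the scale.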
